A study of Mus musculus with 2 samples.

Results

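The myosin heavy chains of heart muscle are described here at the level of single transcript models, together with the antisense transcript Mhrt. The genes are Myh6, Myh7, Myh7b and Mhrt, chosen by name, and they make up 4 of 16269 reference genes detected. Their transcript models number 878 of 91308 in replicate 1 and 925 of 96944 in replicate 2. A transcript model is a set of exons that the authors assigned reads to, and its value is a raw count of reads. Both libraries were made from hearts of B6CASTF1/J males, F1 hybrids of the B6 and CAST strains, at an age of 14 days, so there is 1 group and no other condition. No treatment or transgene is named. The labels speak of 3 males and do not say whether their tissue was pooled. They give both libraries the same donor, number the tissue samples differently, and yet name a single tissue sample and the same cDNAs in the description of both libraries. The descriptions also number the libraries as biological replicates 1 and 2. Spread between the libraries may therefore be technical or biological, which was not tested. The p-values compare these 2 libraries and not conditions.

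The libraries held 1107678 counts in replicate 1 and 1110707 in replicate 2, of which 95.6% and 95.9% fell on reference genes, on 14540 and 14898 of them. Spike-ins took 1.73% and 1.26%. A count of 0 allows up to 3 counts, or 2.83 and 2.82 CPM.

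Myosin heavy chains are the motor proteins of the thick filament. Myh6 encodes the fast alpha chain and Myh7 the slow beta chain of the heart. In rodents the beta chain prevails before birth and the alpha chain takes over afterwards under thyroid hormone, and the balance shifts back towards the beta chain in the stressed adult heart. Myh7b encodes a related ancient chain, and each of the 3 genes carries a microRNA in an intron. Mhrt is a long noncoding RNA transcribed from the opposite strand between Myh6 and Myh7, and in mice it has been described as protective in the pressure-loaded heart. Myh6, Mhrt and Myh7 lie next to each other on mouse chromosome 14, with Myh6 and Myh7 on the minus strand and Mhrt on the plus strand, and Myh7b lies on the plus strand of chromosome 2.

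The intronic microRNAs are shown first because they share most of a seed, the bases that pair with targets. In the mature sequences below, from RefSeq on GRCm38.p6, capitals mark the seed, bases 2 to 8.
mmu-miR-208a-3p: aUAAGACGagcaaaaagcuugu
mmu-miR-208b-3p: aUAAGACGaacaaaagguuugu
mmu-miR-499-5p: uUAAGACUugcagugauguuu
The seeds of miR-208a and miR-208b were identical, and the mature sequences differed at 3 of 22 positions. The seed of miR-499 matched that of miR-208a at 6 of 7 bases. The hairpin of Mir208a lies in intron 29 of Myh6 (chr14:54949060-54949142), that of Mir208b in intron 31 of Myh7 (chr14:54975700-54975776) and that of Mir499 in intron 19 of Myh7b (chr2:155622880-155622958). The intron around Mir208a was spliced out in 21047 Myh6 counts of replicate 1 and 23816 of replicate 2, and 0 Myh6 counts held it in an exon in either library. The intron around Mir208b was spliced out in 6 and 3 Myh7 counts, and the intron around Mir499 in 2 and 7 Myh7b counts. The Mir208b hairpin lay in an exon of 1 count in replicate 2, and the hairpin's own gene had 1 count in replicate 1. Mature microRNAs are too short for these libraries, so the counts describe the host transcripts only.

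Myh6 dominated this set in both libraries. Myh6 (ENSMUSG00000040752.16, chromosome 14, 54941921 to 54966927, minus strand) had 22068 counts in replicate 1 and 24632 in replicate 2, or 21987 ± 1625 CPM (mean ± SD, n = 2), rank 2 of all genes; CPM scales counts to the total on reference genes. Myh7 (ENSMUSG00000053093.16, chromosome 14, 54970684 to 54994626, minus strand) had 17 counts in replicate 1 and 15 in replicate 2 (15.1 ± 1.39 CPM, rank 6800). Myh7b (ENSMUSG00000074652.3, chromosome 2, 155611212 to 155634307, plus strand) had 11 and 17 counts (13.2 ± 3.95 CPM, rank 7289). Myh7 and Myh7b did not differ beyond their spread, and their exact Poisson intervals of 95% overlapped in both libraries. Mhrt (ENSMUSG00000097652.2, chromosome 14, 54968678 to 54974349, plus strand) had 61 and 46 counts (50.4 ± 10.2 CPM, rank 3212) and lay above Myh7 in each library. Per length of the main transcript, which is 6113 bases in Myh6-201, 6135 in Myh7-201, 6163 in Myh7b-201 and 828 in Mhrt-201, the mean levels were 3597, 2.46, 2.14 and 60.9 CPM per kilobase. In bulk tissue, fewer cells of a type and less RNA per cell cannot be told apart.

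**Figure D1:**
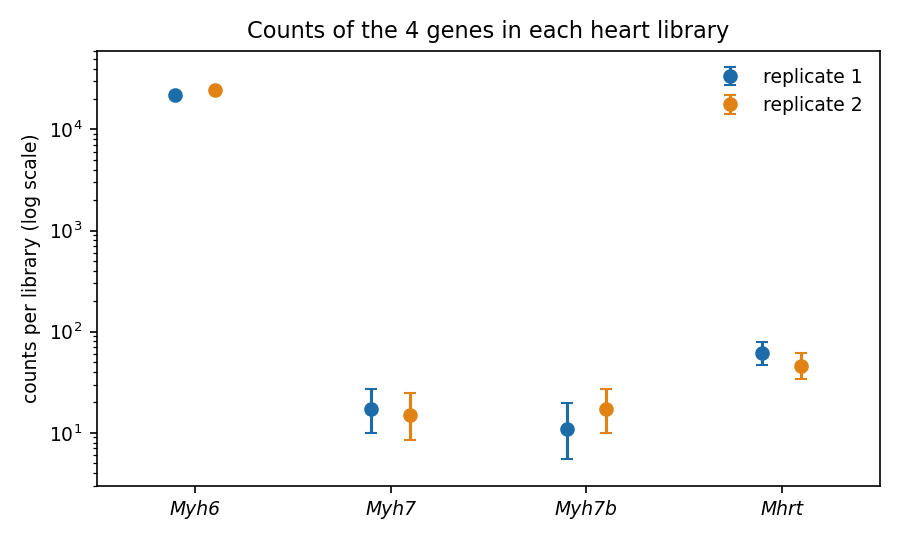
Counts of Myh6, Myh7, Myh7b and Mhrt per library on a log axis, with points for the counts and bars for the exact 95% Poisson intervals, replicate 1 left of replicate 2. Myh6 lies at 22068 and 24632 counts and the other genes between 11 and 61 counts.

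The beta chain made up a small part of the alpha and beta counts. Myh7 held 0.0770% of the Myh6 plus Myh7 counts in replicate 1 (exact Clopper-Pearson interval of 95%, 0.0448% to 0.123%) and 0.0609% in replicate 2 (0.0341% to 0.100%). The shares did not differ in a two-sided Fisher's exact test (p = 0.60, adjusted p = 0.63 over 8 shares compared in this way). Expressed as a ratio, Myh6 had 1298 counts for each Myh7 count in replicate 1 and 1642 in replicate 2. The coding regions of Myh6-201 and Myh7-201 are 91.4% identical over 5822 aligned positions, with a longest identical run of 245 bases, whereas they are 71.7% and 71.8% identical to Myh7b-201, with a longest run of 33 bases. Short models hold fewer differences to tell the genes apart, and the division of counts is the authors'. In models of at least 10 exons, which span many differences between the genes, the Myh7 share was 0.0225% on average. This setting also drops most Myh7 counts because their models are short. Intron 25 was spliced over in 6 Myh7 counts (35.3%) of replicate 1 and 4 (26.7%) of replicate 2. For Myh6 it was 90.5% and 92.9%. The lower share therefore does not show a cleaner division of counts between the genes.

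Between the libraries, Myh6 was the only one of the 4 genes past the threshold, at a log2 ratio of replicate 1 over replicate 2 of -0.15 on CPM plus 1 (adjusted p = 1.4e-26, exact conditional binomial test over 10162 genes). Across all genes 3.26% were called by that test, 1.65% higher and 1.6% lower in replicate 1. Myh7 (log2 ratio 0.18), Mhrt (0.41) and Myh7b (-0.58) did not pass (adjusted p 1.0, 0.63 and 0.83, same exact test). With a trend on transcript length removed, the Myh6 ratio was 0.034 and did not pass (adjusted p = 0.22, exact test, 2.1% of genes called). Scaled by TMM it was -0.069 and passed (adjusted p = 1.9e-05, exact test). At the same ratio it did not pass in the exact test of edgeR, which adds 1 dispersion for all genes to that scaling (adjusted p = 1.0, 0.216% of genes called). That dispersion was estimated from these same 2 libraries taken as 1 group, so it holds the differences under test. Not passing there therefore does not show that the Myh6 difference is absent. Atrial markers moved with the library as well. The 7 listed markers summed to 0.501% of the counts in replicate 1 and 0.124% in replicate 2, with 5 of 6 tested higher in replicate 1 and Nr2f1 at 0 in both, and their part in the Myh6 difference was not tested.

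The most abundant full-length forms of Myh6 differed by a pair of choices at the ends of the transcript. Exon 2, in the 5' untranslated region, was used in a long form of 133 bases or in a form that starts 64 bases further downstream. The last exon, exon 39, was mostly used from the acceptor of Myh6-201 or from an annotated acceptor 3 bases further upstream. An unannotated acceptor 3 bases downstream of that of Myh6-201 had 25 and 32 counts. The 4 combinations of these choices were the 4 most abundant models with all 39 exons, and together they held 65.2% of the Myh6 counts in replicate 1 and 67.3% in replicate 2.

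The 3-base choice lies in the coding region, 6 codons before the stop codon. The lines show the last 24 bases of exon 38 followed by the coding part of exon 39, read 5' to 3' on the minus strand (chr14:54941981-54942004 for the longer exon 39) from GENCODE M21 transcripts on GRCm38, with the 3 added bases in capitals.
Myh6-201: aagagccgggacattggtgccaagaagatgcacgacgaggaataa
Myh6-207: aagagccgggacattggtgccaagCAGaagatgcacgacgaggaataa
The junction falls between codons, so the longer form adds 1 codon and keeps the reading frame (5820 against 5817 coding bases). The added bases, CAG, place the letters AG, the usual end of an intron, directly ahead of the downstream acceptor. In the annotation the longer form is found in Myh6-207, a fragment of 4 exons, and in no transcript that reaches the start codon. The full-length models that hold it are classed as new combinations of annotated splice sites (NIC).

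The longer last exon was used in 6745 of the counts of replicate 1 and 7348 of replicate 2, against 15199 and 17136 counts with the shorter one. Its share was 30.7% in replicate 1 (exact 95% interval 30.1% to 31.4%) and 30.0% in replicate 2 (29.4% to 30.6%), a difference of 0.73 percentage points that did not pass (adjusted p = 0.18, two-sided Fisher's exact test). The share was similar for models of different 5' reach. Among counts whose model reached intron 1 or 2 it was 31.0% in replicate 1 and 30.0% in replicate 2, and among counts that began at introns 26 to 37 it was 30.1% and 30.0%. Across all reference genes, 394 pairs of acceptors 3 bases apart with a shared donor had at least 100 counts in each library, and in 49 of them the rarer acceptor held at least 10%. Of those 49 pairs, in 48 genes, the Myh6 pair had the most counts. The next in counts was in Srl, where the upstream acceptor held 89.5% in replicate 1 and 90.2% in replicate 2.

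The short exon 2 was used in 3618 and 3787 counts and the long one in 11934 and 14124 counts. Its share was 23.3% in replicate 1 (exact 95% interval 22.6% to 23.9%) and 21.1% in replicate 2 (20.5% to 21.7%). This difference of 2.12 percentage points passed (adjusted p = 2.7e-05, two-sided Fisher's exact test over the same 8 shares). The start codon lies in exon 3, so both forms encode the same protein and differ in the length of the leader.

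No link between the choices at both ends was detectable. In replicate 1, 31.8% of the counts with the short exon 2 and 31.0% of those with the long exon 2 ended in the longer last exon, and in replicate 2 the shares were both 30.1%. The odds ratios were 1.04 and 1.00 (p = 0.33 and 0.97, adjusted p = 0.50 and 0.97 over 6 tests, two-sided Fisher's exact test on counts). Each count used here belongs to a model that reaches both ends, so the choices were paired within models.

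Among single models, Myh6-201, the annotated main transcript with the long exon 2, had 7609 and 9145 counts. The same model with the longer last exon, 39 exons and 6049 bases, had 3437 and 3935 counts. Myh6-205, with the short exon 2, had 2278 and 2442 counts, and its partner with the longer last exon, of 5985 bases, had 1065 and 1048 counts. Of 120 Myh6 models tested between the libraries, 2 passed, both lower in replicate 1, against 2.11% called among 13276 models of all genes, 0.942% lower in replicate 1. They were Myh6-201 (log2 ratio -0.26, adjusted p = 1.6e-27, exact test) and its form with the longer last exon (-0.19, adjusted p = 4.0e-06, exact test). The median log2 ratio was -0.24 over 49 Myh6 models of 38 or more exons and 0.28 over 35 models of fewer than 20 exons. Long models thus tended to be lower and short models higher in replicate 1.

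**Figure D2:**
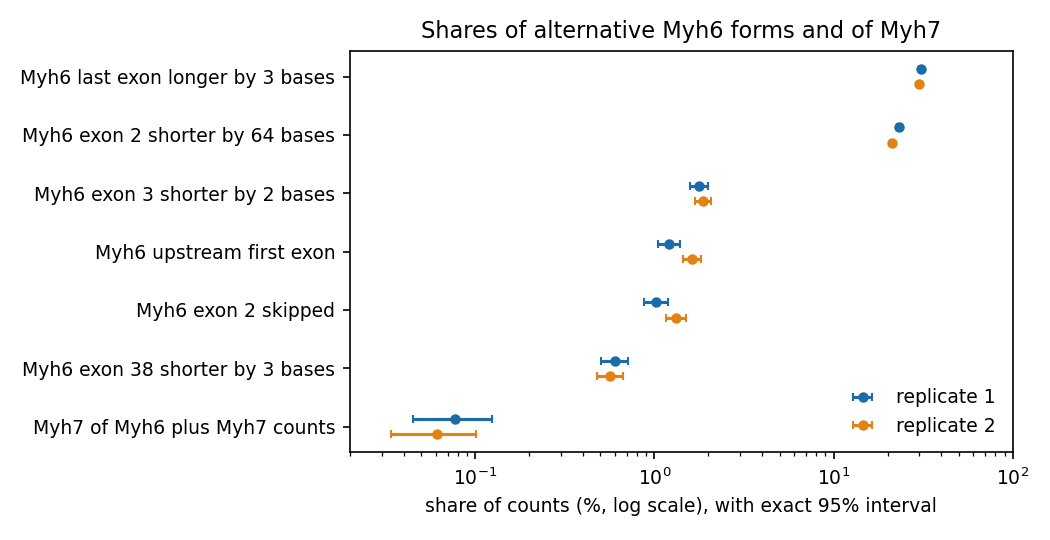
Shares of counts with each alternative form of Myh6, and of Myh7 among Myh6 plus Myh7 counts, on a log axis with exact 95% intervals, replicate 1 above replicate 2. The longer last exon lies near 30% and the shorter exon 2 between 21.1% and 23.3%, and the other forms lie below 2%.

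A further first exon lay upstream of the annotated starts of Myh6. Its 3' end is at base 54967868 of chromosome 14, which is 1227 bases upstream of the Myh6-201 start, and its 5' end differed between models, with lengths from 92 to 811 bases. The longest form reaches base 54968678, which is also the annotated start of Mhrt-202 on the other strand. Its length is therefore not read as a start site of Myh6. GENCODE M21 has no Myh6 exon there, while the RefSeq gene span of Myh6 reaches 54968017. It was found in 24 models with 191 counts in replicate 1 and in 25 models with 295 counts in replicate 2, and all but 1 count in each library belonged to models of at least 38 exons. Counts from this exon were 1.21% of those from it and the annotated first exon in replicate 1 (exact 95% interval 1.05% to 1.40%) and 1.62% in replicate 2 (1.44% to 1.81%). The difference between the libraries passed (adjusted p = 0.0062, two-sided Fisher's exact test). The first exon annotated in Myh6-202 was almost unused, with 1 and 3 counts.

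Transcripts from the upstream exon treated exon 2 differently. They skipped exon 2 in 28.6% of counts in replicate 1 and 30.9% in replicate 2, whereas transcripts from the annotated first exon skipped it in 0.696% and 0.851%. This difference was present in both libraries (adjusted p = 2.6e-63 and 1.2e-98 over 6 tests, two-sided Fisher's exact test on counts). The share of the short exon 2 was 31.9% and 32.6% from the upstream exon, against 22.9% and 20.7% from the annotated one. Unlike the share given above, these values include skipping counts in the total. From the upstream exon, 59 short and 73 long counts were seen in replicate 1, and 93 and 104 in replicate 2. From the annotated exon there were 3559 short and 11861 long counts in replicate 1, and 3694 and 14020 in replicate 2. The share of the longer last exon did not differ by first exon in a way that passed (25.1% against 31.1% in replicate 1 and 30.8% against 30.0% in replicate 2, adjusted p = 0.17 and 0.90, same exact test). Over all first exons, exon 2 was skipped in 161 and 240 counts, 1.02% and 1.32% (adjusted p = 0.031 between the libraries, exact test).

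Smaller shifts of splice sites were spread over the gene. Of 628 different Myh6 introns, 42 are annotated, which are all that GENCODE M21 lists for the gene, and these took 99.8% of the intron counts in each library. Of the 586 others, 415 had a single count over both libraries and 77 had at least 5. These 77 had 1487 counts in replicate 1 and 1660 in replicate 2. Only the acceptor was unannotated in 29, only the donor in 30 and both sites in 16, and 2 joined annotated sites over a skipped exon. Not all of them are small shifts. The donor class includes joints from the upstream first exon, with 73, 59 and 53 counts in replicate 1 and 104, 93 and 88 in replicate 2. The unannotated exon in intron 33, described below, adds to the acceptor and donor classes. The most abundant was an acceptor of exon 3 that lies 2 bases further downstream, ahead of the start codon, with 309 and 374 counts, or 1.77% and 1.87% of exon 3 counts at that junction. Among donors the shift found at the most introns was 4 bases downstream. It was seen at 11 introns with 230 and 212 counts, and 99 and 68 of these lay at intron 27. A shift of 4 bases inside the coding region breaks the reading frame unless another change restores it.

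A further 3-base choice was found at exon 38, at an acceptor that is not annotated and lies 3 bases further downstream. It was used in 131 counts of replicate 1 and 138 of replicate 2, 0.600% and 0.566% of the junctions there, and it also keeps the reading frame. The rarer acceptor was thus far less used here than at exon 39, where the rarer annotated acceptor held about 30%.

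An unannotated exon of 48 bases lay in intron 33, which is 397 bases long, at 54946635 to 54946682. It was included in 19 models with 25 counts in replicate 1 and 18 in replicate 2. Its length is a multiple of 3. Intron 33 was also the intron most often kept unspliced in Myh6, in 71 and 76 counts. The next were intron 16, kept in 17 and 50 counts, and intron 15, kept in 31 and 34 counts. Skipping of the 28-base exon 6, which joins exons 5 and 7, was rare, at 5 and 6 counts.

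Some junctions joined the interior of 1 exon to that of another. Of 229 Myh6 introns with neither site annotated, 157 ran between bases inside exons of Myh6-201 and left out at least 20 bases of transcript, with 98 and 140 counts, and 14 of the 157 were in both libraries. The bases directly on either side of such a junction can be the same letters, which leaves its exact position undefined. Over the 157 junctions the median number of shared letters was 2, and 30 junctions (19.1%) shared at least 6.

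Counts fell from the 3' to the 5' end of Myh6. Splicing over intron 38, the last, was seen in 99.6% of Myh6 counts in each library, over intron 26 in 93.2% in replicate 1 and 94.9% in replicate 2, over intron 2 in 79.9% and 82.5%, and over intron 1 in 71.4% and 73.9%. Models with an annotated first and last intron held 70.5% ± 1.47 of the counts (SD, n = 2). In the other genes such models held 4 of 17 and 3 of 15 Myh7 counts, 2 of 11 and 5 of 17 Myh7b counts, and 32 of 61 and 15 of 46 Mhrt counts. Relative to the count over the last intron of Myh6-201 with exactly its splice sites, the count over its first intron was 78.0% in replicate 1 and 81.8% in replicate 2. With every form of exon 2, the upstream first exon and both annotated acceptors of exon 39 counted, it was 71.8% and 74.3%. In 54 other genes with a dominant transcript of 5000 to 7000 bases and enough counts the median of the value with exact splice sites was 89.2% (quartiles 69.0% and 98.1%), and 32 of them lay above Myh6. The replicate 1 line was below the replicate 2 line at every intron up to intron 37.

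**Figure D3:**
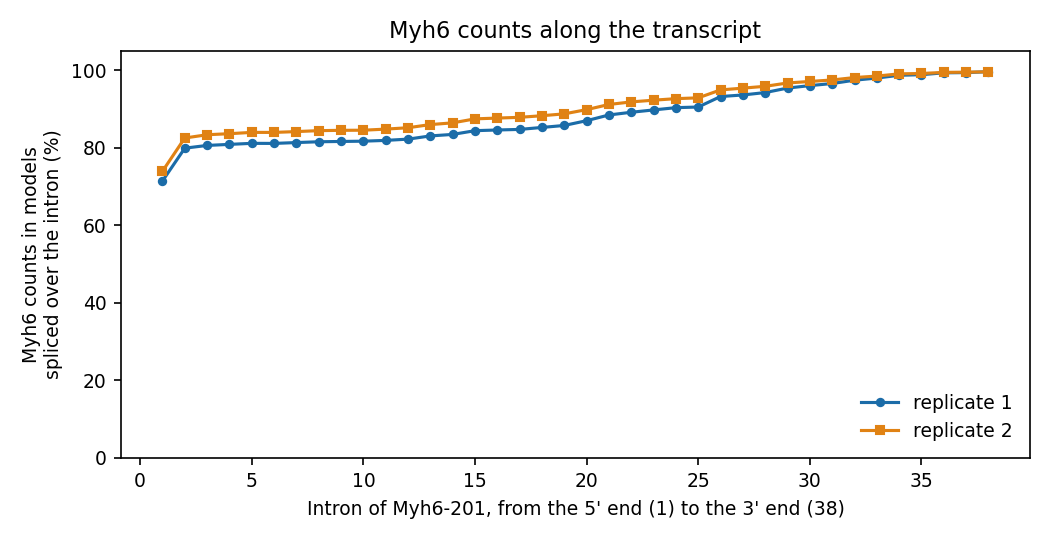
Share of Myh6 counts in models spliced over each of the 38 introns of Myh6-201, from the 5' end at the left to the 3' end at the right, for replicate 1 and replicate 2. The share rises from 71.4% and 73.9% at intron 1 to 99.6% at intron 38 in each library.

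Models that lack 5' exons but match the rest of an annotated transcript form the suffix group of the incomplete matches (ISM). For Myh6 there were 183 of them with 6016 counts in replicate 1 and 186 with 6198 counts in replicate 2. Models with 38 exons, which lack the first exon only, held 29.0% and 32.03% of those counts. The most abundant had 1159 and 1309 counts. A second accumulation lay at 14 exons, with 595 and 496 counts. Of the suffix counts 87.9% and 80.5% had a 5' end exactly on an annotated exon edge, so these ends follow the annotation and are not read as start sites.

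Myh6 had more transcript models than any other gene, 842 in replicate 1 and 875 in replicate 2, where the median detected gene had 3. The next was the calcium pump gene Atp2a2 with 172 and 198. Of the Myh6 models, 609 and 615 had a single count. By intron chain, the ordered list of introns, 1418 different chains were seen, 295 of them in both libraries. Those 295 held 97.3% and 97.4% of the counts in spliced Myh6 models, and no chain seen in 1 library had more than 7 counts. Most Myh6 models were thus rare forms.

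Known transcripts held 46.0% ± 1.55 of the Myh6 counts, incomplete matches 26.6% ± 1.47, new combinations of annotated sites 24.9% ± 0.12 and models with an unannotated site (NNC) 2.47% ± 0.039 (mean ± SD, n = 2). Of 59 other genes with dominant transcripts of 5000 to 7000 bases and at least 100 counts in each library, 3 had a higher share of new combinations over both libraries (median 1.30%), and 44 had a higher share of known transcripts (median 77.0%). In the 3 other genes the classes rest on few counts. Known transcripts held 21.8% ± 2.50 of the Myh7 counts, 12.03% ± 8.70 of the Myh7b counts and 21.01% ± 14.3 of the Mhrt counts, against 81.3% ± 0.18 over all other reference genes.

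**Figure D4:**
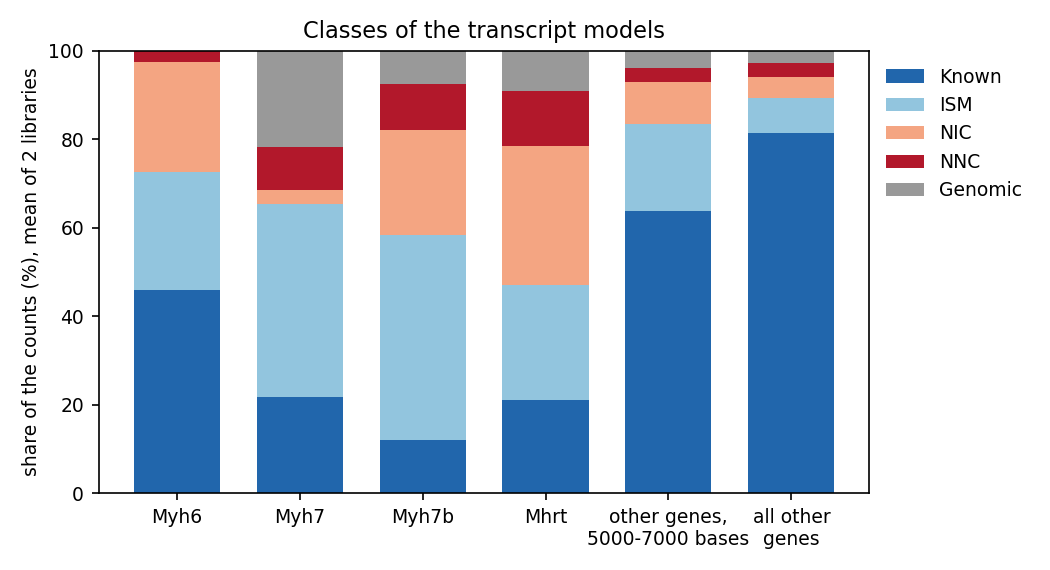
Stacked bars of the share of counts in each model class, as the mean of 2 libraries, for Myh6, Myh7, Myh7b and Mhrt, then for other genes with dominant transcripts of 5000 to 7000 bases and for all other genes. Known is an annotated transcript, ISM an incomplete match, NIC a new combination of annotated sites, NNC a model with an unannotated site and Genomic a model that overlaps a gene without matching its splicing. The known share is 46.0% in Myh6 and lower in Myh7, Myh7b and Mhrt, against 81.3% in all other genes.

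Full-length Myh7 was present at low counts. Myh7-201, the annotated transcript of 41 exons, had 4 counts in replicate 1 and 3 in replicate 2. Replicate 1 held 9 Myh7 models with 17 counts. Besides Myh7-201, a further model of 41 exons and 6063 bases had 1 count, an incomplete match of 32 exons had 1, and 4 incomplete matches of 2 to 7 exons at the 3' end had 7 counts in all. The other 2 were single-exon models with 3 and 1 counts. Replicate 2 held 10 models with 15 counts, among them an incomplete match of 26 exons at the 5' end with 1 count, 3' fragments of 2 to 4 exons and 2 single-exon models with 2 and 1 counts. Introns 1 to 9 of Myh7-201 had 5 counts each in replicate 1 and 4 in replicate 2, and the last intron had 13 and 11, each counted with any splice sites at that place.

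In replicate 2, 2 Myh7 models of 7 exons, with 1 count each, ran on into the neighbouring gene. Both joined a Myh7 exon to the last exon of Myh6 by a junction of 29372 bases (54942005 to 54971376). The acceptor used was the upstream 1 of the 2 annotated acceptors of Myh6 exon 39. No such model was listed in replicate 1. The coding regions share identical runs of up to 245 bases, and the part of this likeness in the joined models was not tested.

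Myh7b was spliced in a form that GENCODE M21 does not list. Exon 7 of Myh7b-201 (155615401 to 155615497, 97 bases) was left out by every count that reached across it, 2 of 2 in replicate 1 and 7 of 7 in replicate 2, in 2 and 5 models. The exon was included in 0 counts in both libraries. For 0 of 9 counts in all, counting error allows an inclusion of up to 33.3%, so rarer inclusion was not detectable at this depth. Skipping of an early Myh7b exon has been described before in mammalian heart, as a way for the gene to be transcribed with its microRNA and without its protein.

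The sequence at the junction shows what the skip does to the reading frame. The line gives 27 bases of exon 6, all of exon 8 and the start of exon 9 (chr2:155617524-155617717, GENCODE M21 transcript without exon 7), up to the first stop codon in frame, in capitals.
Myh7b exon 6 to exon 8: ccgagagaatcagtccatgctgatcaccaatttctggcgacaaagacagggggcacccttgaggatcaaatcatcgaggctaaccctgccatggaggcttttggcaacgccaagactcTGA
Exon 7 is not a multiple of 3 in length, and its loss shifts the frame. The stop codon TGA then closes the frame after 621 bases, 10.7% of the 5826 coding bases of Myh7b-201. It lies 5096 bases upstream of the last exon junction. This frame holds for transcripts with intron 3 spliced out. Intron 3 lies after the start codon, which is in exon 2. Of the counts without exon 7, 1 in replicate 1 and 4 in replicate 2 kept intron 3, and their frame was not read.

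Most Myh7b models lacked the 5' end. Replicate 1 held 10 models with 11 counts and replicate 2 held 13 with 17 counts. The known models were 2 counts and 1 count of Myh7b-203, a fragment of 2 exons, and Myh7b-201 itself was not listed in either library. The models without exon 7 were nearly complete, with 39 to 41 exons, and had 2 counts in replicate 1 and 7 in replicate 2, the most abundant being a model of 40 exons and 6140 bases with 3 counts. Intron 3, of 178 bases, was kept in 1 count and spliced in 1 count of replicate 1, and kept in 4 and spliced in 3 of replicate 2. The first intron had 2 and 5 counts and the last 10 and 15, so most Myh7b counts came from the 3' end.

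Mhrt was detected as a family of spliced forms. Mhrt-201, the annotated form of 5 exons and 828 bases, had 19 counts in replicate 1 and 5 in replicate 2, a log2 ratio of 1.73 that did not pass (adjusted p = 0.13, exact test). A shorter form of 3 exons and 599 bases, which joins exon 1 to exon 4, had 7 counts in each library. A form of 5 exons that lacks the annotated exon 1 had 5 counts in each library, with its 5' end at base 54970091 (1103 bases) in replicate 1 and at base 54970232 (962 bases) in replicate 2. Mhrt-202, a fragment of 2 exons, was not listed. All other Mhrt models had summed counts under 10, over lengths of 747 to 3884 bases in replicate 1 and 747 to 5163 bases in replicate 2.

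The joint of exon 1 and exon 4 identifies the short form. It is given with the last 24 bases of exon 1 in lower case and the first 24 bases of exon 4 in capitals (chr14:54973461-54973484, plus strand, from the GENCODE M21 transcript).
Mhrt exon 1 to exon 4: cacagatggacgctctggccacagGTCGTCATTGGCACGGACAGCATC
Both sites are annotated, and their union is not. Splicing at the 3' part of Mhrt was more uniform than at the 5' part. The last intron had 54 and 42 counts and intron 2 had 45 and 31. The annotated first intron of Mhrt-201 had 21 and 7 counts, while unannotated joints to exon 2 came from a donor at base 54970427 with 15 and 13 counts and from another at 54969388 with 2 and 5 counts. A pair of exons that GENCODE M21 lacks in these forms, 54969301 to 54969387 (87 bases) and 54970232 to 54970426 (195 bases), were internal in 8 and 7 counts and in 10 and 6 counts.

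Most Mhrt counts were in models with the annotated ends. Of 61 counts in replicate 1, 49 began at base 54968787, the start of Mhrt-201, and 56 ended at base 54974349, its end. In replicate 2, 26 of 46 counts began and 40 ended there. The start of Mhrt-201 lies 2146 bases from that of Myh6-201 on the other strand, and the upstream first exon of Myh6 falls between them. Models that ran past the Mhrt-201 end had 2 counts in replicate 1, up to 54977025, and 6 counts in replicate 2, up to 54991200. Base 54991200 is also an edge of Myh7 exon 8 on the other strand, and other Mhrt models began at base 54970810, an edge of Myh7 exon 41. Ends of Mhrt models can thus follow annotated edges and are not read as start or end sites.

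Mhrt overlaps the 3' exons of Myh7 on the other strand. Of the 828 bases of Mhrt-201, 463 (55.9%) lie opposite Myh7-201 exons. Exon 2 lies within Myh7 exon 40 over all its 81 bases and exon 3 within exon 38 over all its 148 bases, while 45 of 66 bases of exon 4 lie opposite exon 36 and 189 of 472 bases of exon 5 opposite exon 35. None of the 27 introns seen in Mhrt models had exactly the coordinates of a Myh7 intron or shared an exact end with one. This includes the 9 introns beyond the Mhrt-201 end, but some of those lie close to Myh7 introns. One of them, at 54978718 to 54978882 with 0 and 2 counts, is 165 bases long. Myh7 intron 29, at 54978702 to 54978866, has the same length. A relation to Myh7 splicing was not tested.

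Other plus-strand models over the Myh6 and Myh7 locus (chr14:54941921-54994626) were few. In replicate 1 there were 21 plus-strand models with 75 counts, of which 4 models with 14 counts were not Mhrt, and in replicate 2 there were 30 with 55 counts, of which 3 with 9 counts were not Mhrt. Within Myh6, a single-exon model of 3507 bases had 7 counts in replicate 1 (54951913 to 54955419), and another of 1502 bases had 5 counts in replicate 2 (54954581 to 54956082). They overlapped in part, had no splice site and were a small fraction of the Myh6 counts on the other strand. Downstream of Mhrt, a model of 294 bases that begins at the Mhrt-201 end had 1 count in each library. A model of 1970 bases from 54974642 had 3 counts in replicate 2. The reference gene Gm17428 had 6 counts in replicate 1, 5 on its annotated exon of 93 bases and 1 on a 2-exon model, and 0 in replicate 2.

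**Figure D5:**
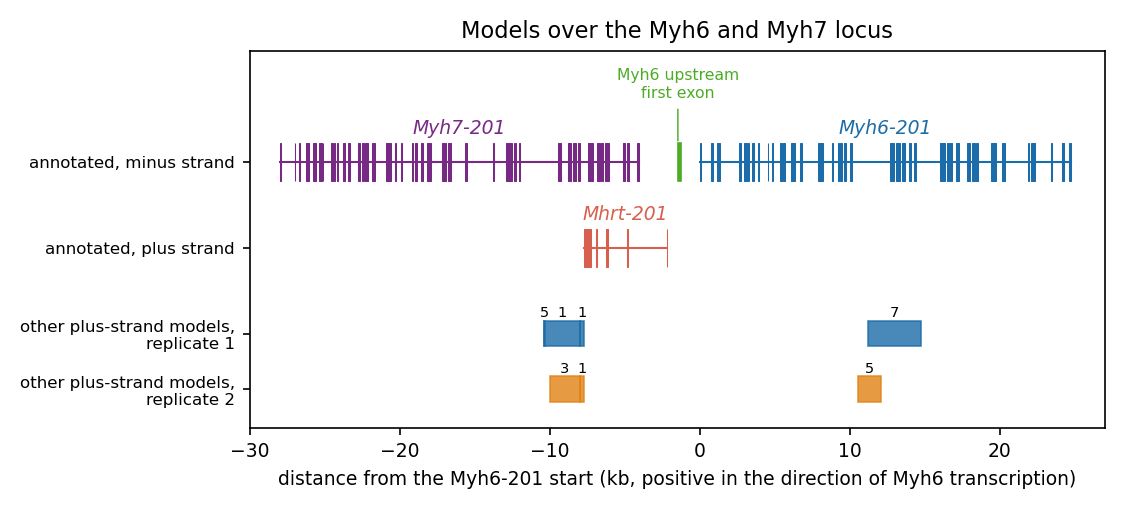
Map of the locus by distance in kilobases from the Myh6-201 start, positive in the direction of Myh6 transcription. Boxes are exons of Myh6-201, Myh7-201 and Mhrt-201 and the upstream first exon of Myh6, and the lower rows show the other plus-strand models with their counts, replicate 1 above replicate 2. Mhrt-201 lies over the 3' part of Myh7, and the models with 7 and 5 counts lie within Myh6.

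Of the genes that work with these chains, 13 of 13 listed thick filament partners and chaperones were detected and tested. They had 4 members higher and 1 lower in replicate 1, with a median log2 ratio of 0.06 against -0.08 over all genes tested, of which 1.65% were called higher and 1.6% lower. The ventricular light chains Myl3 (7803 ± 217 CPM, not past the threshold) and Myl2 (2174 ± 271 CPM, log2 ratio 0.26, adjusted p = 2.7e-07, exact test) had the highest levels, followed by the kinase Mylk3 (629 ± 32.3 CPM) and the binding protein Mybpc3 (614 ± 20.99 CPM), which did not pass. The atrial members Myl7, Myl4 and Mybphl were the other 3 higher in replicate 1, and the myosin chaperone Unc45b was lower (log2 ratio -0.49, adjusted p = 0.0089, exact test). With the length trend removed, 4 members passed, all higher in replicate 1, against 2.1% of all genes called. These were Myl7, Myl4, Mybphl and Myom2, a protein of the M-band (log2 ratio 0.48, adjusted p = 0.0025, exact test), while Myl2 lay at 0.028 and Unc45b at -0.35, and neither passed.

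Regulators of the alpha and beta genes were all detected, 17 of 17, and 0 of 16 tested passed in the exact binomial test, in the exact test of edgeR or with the length trend removed. Those tests called 3.26%, 0.216% and 2.1% of all genes, so a count of 0 among 16 is near the background. The highest were Nkx2-5 (187 ± 0.039 CPM) and Gata4 (128 ± 16.2 CPM), cardiac transcription factors, followed by Mef2a (86.1 ± 13.7 CPM) and Mef2d (72.0 ± 1.73 CPM). The thyroid hormone receptor Thra had 30 and 33 counts and Thrb had 7 and 4. Of 11 other myosin heavy chains 5 were detected, and 0 of 3 tested passed. Myh14 (35 and 29 counts) and Myh9 (26 and 37), nonmuscle chains, were highest, the smooth muscle chain Myh11 had 8 and 15, Myh10 had 1 and 7, and the embryonic skeletal chain Myh3 had 1 and 0. The adult skeletal chains Myh1, Myh2 and Myh4 were at 0 in both libraries, as were Tnnt3 and Actn3, while the other 4 of 9 skeletal muscle markers summed to 81 and 56 counts. All 6 listed cardiomyocyte markers were detected, led by Myl3 and Actc1 (6515 ± 284 CPM), whereas Hey2, 1 of 3 ventricular markers, was at 0. Of the 6, Pln and Tnni3 were higher and Actc1 lower in replicate 1 (adjusted p = 1.8e-12, 0.00035 and 0.013, exact binomial test), where 3.26% of all genes were called. With the length trend removed only Pln passed (adjusted p = 1.1e-21, exact test), against 2.1% of all genes.

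By the distance of log2 CPM plus 1 over the 2 libraries, the genes nearest to Myh6 in level were Slc25a4, the mitochondrial ADP/ATP carrier, with 27315 and 24803 counts, and the tropomyosin Tpm1, with 18662 and 18858 counts. For Myh7, 10 genes had exactly its counts of 17 and 15, so no nearest gene stands out. With 2 libraries of 1 group such nearness describes a level only.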

How the data were processed

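The authors deposited raw counts of long reads per transcript model for each library and an annotation of the models, whose reference is GENCODE M21 on mm10 per the files' notes. New models carry the source name TALON. Per the labels, each library began from 2 µg of total RNA with spike-ins of Lexogen (set 4) and Ambion (mix 1). The sources used here do not give the aligner, the filters or the instrument. The members, lists and tests were chosen with earlier results of these data known. All models named for a gene were summed. CPM was scaled to the counts on reference genes, 1059016 in replicate 1 and 1064679 in replicate 2, without spike-ins and new genes, so 3 counts equal 2.83 and 2.82 CPM. Each gene, and each model matched by its introns, with 10 or more counts over both libraries was tested between them. This used an exact binomial test (scipy 1.17.1), Benjamini-Hochberg adjusted at 0.05. The test was tried on simulated counts with counting error only, which it assumes, so that trial does not cover libraries with more spread. Alternatives used edgeR 4.0.16 and DESeq2 1.42.0. Shares carry exact Clopper-Pearson intervals of 95%. Without molecular identifiers, reads may repeat a molecule, and intervals cover counting error only. All 4 members are named. Models could be named at a summed count of 10 or among the 5 most abundant, unannotated introns at 5, and list members by level (the 4 highest). Most Myh6 models and introns past these limits are not named, and those named were chosen after their values were seen. Further members of lists, introns and tandem acceptors in other genes were also chosen after their values were seen. Sequence at 1 Myh6 junction is not reported here.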

Additional observations from a re-analysis of the deposited data

How the results depend on the processing

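No paired analysis was possible because the series has 1 group. Over 100 settings of the main results, 78 kept their direction, their side of the threshold or their value within the spread of the libraries. The settings that left out 1 library are among those 78. With 2 libraries such values lie within the spread by construction, so they do not test stability. The Myh6 difference between the libraries (log2 ratio -0.15) was 0.034 with the length trend removed and -0.069 in the exact test of edgeR, and passed in neither. Of all genes 331 were called, 213 with the length trend removed and 22 by edgeR, which adds a dispersion estimated from these same 2 libraries. The cause of the change of sign was not tested. Under TMM scaling 241 genes were higher and 92 lower in replicate 1, against 168 and 163. With models of a reference identifier only, Myh6 lay at 12581 CPM, Myh7 at 4.09, Myh7b at 1.75 and Mhrt at 14.0, and the Myh7 share at 0.0331%, against 0.0225% with models of at least 10 exons. With models of at least 2 counts, the known share was 32.1% in Myh7 and 50.0% in Myh7b, the annotated share of intron counts 99.84% in Myh6 and 99.01% in Myh7b, and the chains in both libraries 166, 0 and 4 in Myh6, Myh7b and Mhrt. The antisense models of replicate 2 were then 8. With sites within 10 bases the annotated shares were 99.91% in Myh6 and 99.3% in Myh7b. With ends also within 100 bases, 1 Myh7b and 8 Mhrt chains were shared. With exons in place of introns, complete counts were 24.7% in Myh7 and 67.1% in Mhrt.

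Without either library, levels ranged over 20838 to 23136 CPM (Myh6), 14.1 to 16.1 (Myh7), 10.4 to 16.0 (Myh7b) and 43.2 to 57.6 (Mhrt). The Myh7 share ranged over 0.0609% to 0.0770%. The splicing shares of Myh6, recomputed on models of at least 38 exons and of at least 2 counts, settings chosen after seeing the data, kept their calls. Counts of 11 to 61 limit Myh7, Myh7b and Mhrt to forms that are common within the gene.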
